A study of Mus musculus with 2 samples.

Results

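The genes described here encode the molecules of the major histocompatibility complex (MHC) and the proteins that load them with peptide. They were chosen by name from the deposited gene table: protein-coding rows whose symbol starts with H2-, the mouse MHC prefix, together with B2m, Tap1, Tap2, Tapbp, Nlrc5, Cd74, Ciita and Cd1d1. This gave 42 of 55246 rows, of which 30 belong to class I, 11 to class II and 1, H2-Ke6, encodes a metabolic enzyme that carries the prefix for its position alone. The table holds 1 RNA sequencing library of regulatory T cells (Treg cells) from the colon lamina propria of wild-type (WT) female mice. A second library holds Treg cells of the same tissue from female mice of genotype Exon2KO, which the series title ties to a form of Foxp3, the lineage factor of Treg cells, without its exon 2. The labels used here give no strain, age, sorting scheme or number of animals, and neither genotype has a replicate, so no difference could be set against a spread between samples. Strain bears on these genes in particular, because MHC genes differ between mouse strains and the submitters' processing notes name the build mm10, the genome of a single strain.

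Class I molecules consist of a heavy chain and the light chain beta-2 microglobulin. They carry peptides from inside the cell, which the TAP transporter delivers and tapasin helps to load, and show them to CD8 T cells. Almost every nucleated cell makes them, lymphocytes at high levels, and NLRC5 is their transactivator. Class II molecules pair an alpha and a beta chain, are guarded by the invariant chain CD74 until they reach the endosome, and show peptides to CD4 T cells. In mice they are made mainly by B cells, dendritic cells and macrophages under the transactivator CIITA, and mouse T cells are known to make little or none. Interferons raise both classes.

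MHC promoters carry a conserved pair of elements, an X box whose X2 part resembles a cyclic AMP response element and a Y box that holds an inverted CCAAT sequence, and class I promoters add sites for NF-kB and interferon factors. The RefSeq promoter table (build GRCm38.p6), with windows from 250 bases before to 50 bases after each annotated start, matched 34 of the 42 members. The stretches below are shown because they carry these elements in the most abundant class I heavy chain with no overlapping annotated exon there, in a class Ib gene, in the light chain gene and in both kinds of class II chain. Each is printed 5′ to 3′ on the strand of its gene and lies upstream of the start. Capitals mark the pair TGANG and ATTGG, on the same strand with 18 to 22 bases between them, and, where present, GGGATTCC (NF-kB-like) and TTTCACTT (interferon-response-like).
H2-K1 (chr17:34000349-34000467, minus strand): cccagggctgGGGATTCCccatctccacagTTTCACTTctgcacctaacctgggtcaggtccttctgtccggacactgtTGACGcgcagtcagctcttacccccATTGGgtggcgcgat
H2-Q7 (chr17:35439013-35439129, plus strand): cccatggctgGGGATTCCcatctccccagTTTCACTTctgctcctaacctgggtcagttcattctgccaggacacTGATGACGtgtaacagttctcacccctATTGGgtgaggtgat
B2m (chr2:122147599-122147648, plus strand): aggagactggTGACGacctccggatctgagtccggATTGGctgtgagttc
H2-Aa (chr17:34287857-34287907, minus strand): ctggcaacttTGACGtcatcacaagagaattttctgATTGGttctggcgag
H2-Eb1 (chr17:34305771-34305822, plus strand): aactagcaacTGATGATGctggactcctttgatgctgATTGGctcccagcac

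In H2-K1 and B2m 20 bases separated TGANG from ATTGG, and in H2-Aa 21. H2-Q7 and H2-Eb1 each held a pair of overlapping TGANG matches, 22 and 19 bases before ATTGG. No other motif overlapped another. On either strand the spaced pair was found in 472 of 32851 RefSeq windows (1.44%). Among members with at least 10 reads it was found in 6 of the 15 class I genes with a window (B2m, H2-D1, H2-K1, H2-M3, H2-Q6 and H2-Q7) and in 5 of the 8 class II genes (H2-Aa, H2-DMb1, H2-DMb2, H2-Eb1 and H2-Eb2). GGGATTCC, present in 1.06% of all windows, was found in H2-D1, H2-K1, H2-Q6 and H2-Q7. TTTCACTT, present in 1.6% of all windows, was found in 9 class I genes and in 0 of the 8 class II genes. These motifs were chosen after the sequences were seen. A match describes letters, not a bound site.

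The libraries held 16281133 (WT) and 15412425 (Exon2KO) reads assigned to genes. Where a gene had 0 reads, its true share could still reach 1.84e-05% in WT and 1.95e-05% in Exon2KO (3 reads). All intervals below are 95% intervals and cover counting error only. T cell markers were present in both, with 5154 and 5262 reads of Cd3e and 4593 and 5367 of Cd4. Of 8 T cell markers 5 had a ratio below 0, down to -0.77 for Cd2, and 0 were called. Foxp3 had 6991 and 20946. Counts per gene cannot show whether exon 2 is absent from Foxp3 transcripts. Of 8 Treg markers, 2 were called higher, Foxp3 among them, and 3 lower. Most epithelial markers stood higher in the Exon2KO library: 8 of 10 were called higher, beside 7.31% of all tested genes. Epcam went the other way, with 782 and 609 reads at -0.39 (-0.54 to -0.23). The summed FPKM of the list was 46.6 in WT and 187.7 in Exon2KO.

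Of the 42 members, 9 had 0 reads in both libraries, H2-M10.2 had 2 reads in WT and 0 in Exon2KO, and 32 had at least 10 reads over both and were tested. All 9 genes at 0 belong to the H2-M family of class I heavy chains (H2-M1, H2-M5, H2-M9, H2-M11 and 5 of the 6 H2-M10 genes), and the H2-M10 genes are known from sensory neurons of the vomeronasal organ. The split of each gene's reads between the libraries was tested with an exact binomial test (2-sided), the scaled library sizes giving the expected split, and p-values were adjusted over all 17363 genes with at least 10 reads. A gene was called when the adjusted p-value was below 0.05 and the ratio at least 2-fold. The test compares these 2 libraries, not the genotypes. Among the members, 3 were called lower in the Exon2KO library (Cd1d1, Cd74 and H2-Oa) and 0 higher. That is 9.38% of the tested members called lower, beside 6.81% of all tested genes called lower, 7.31% called higher and 14.1% called in either direction. At 2-fold the share of calls thus lay near the background. With an assumed biological coefficient of variation of 0.2 in edgeR, Cd1d1 was the only one of the 3 still called, and with 0.4 none was; of all tested genes 3.09% and 0.449% were then called lower. At 1.5-fold, 7 of the 32 tested members were called lower and 1 higher, beside 10.9% and 10.8% of all tested genes. The share called lower was then above the background and the share called higher below it. At 4-fold 0 were called lower, beside 2.35%.

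**Figure D1:**
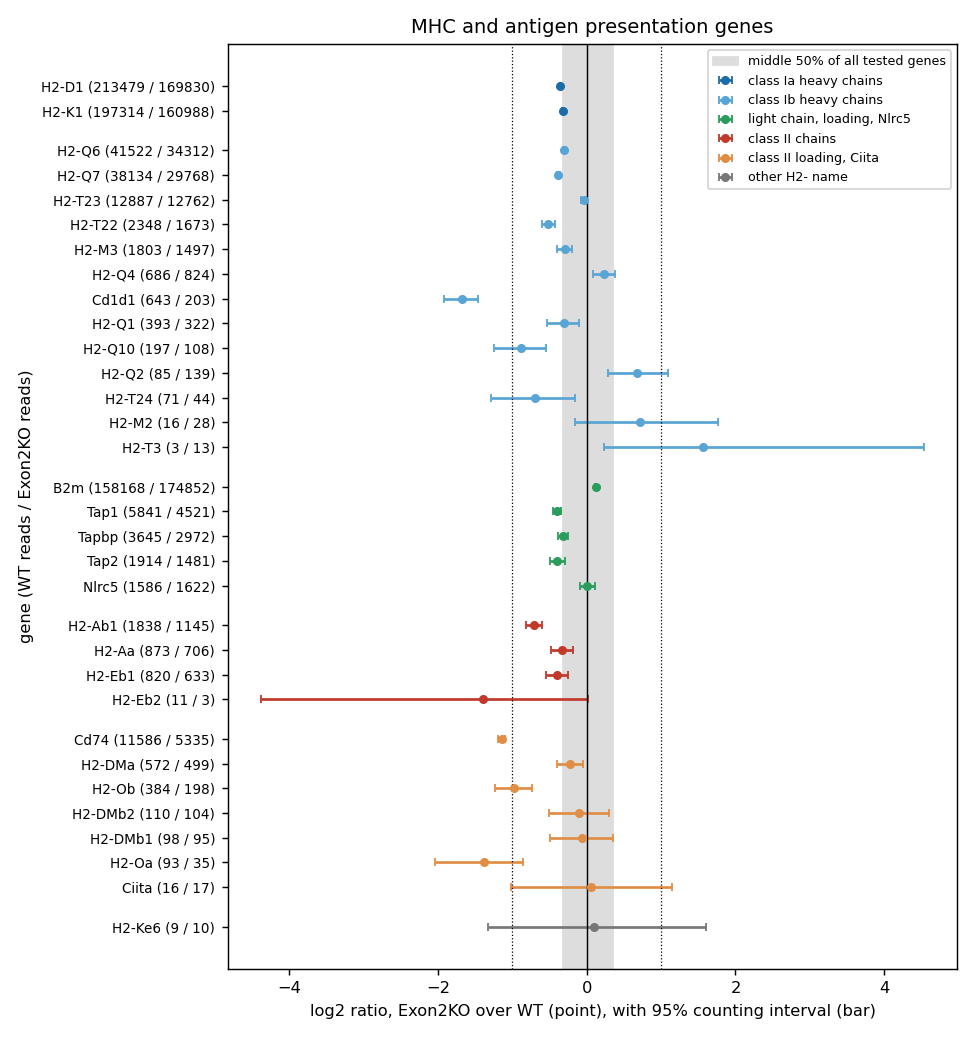
Log2 ratio of Exon2KO over WT (x axis) for the 32 tested members, by role, with 95% counting intervals as bars and the reads of each library beside the name. Dotted lines mark 2-fold, and the grey band is the interquartile range of all tested genes; class I members with at least 1000 reads lie between -0.52 and -0.29, apart from B2m, H2-T23 and Nlrc5.

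Class I heavy chains and B2m were among the most abundant transcripts of these cells. H2-D1 and H2-K1, the classical heavy chains that present peptide to CD8 T cells, and B2m took 3.495% of all WT reads and 3.281% of all Exon2KO reads. H2-D1 (chromosome 17, 35262730 to 35267499, plus strand) had 213479 reads in WT and 169830 in Exon2KO. Its level per length was 5248 FPKM in WT and 4139 in Exon2KO, and its log2 ratio was -0.36 (95% interval -0.37 to -0.35). H2-K1 (chromosome 17, 33996017 to 34000333, minus strand) had 197314 and 160988 reads, or 4797 and 3880 FPKM, at -0.32 (-0.33 to -0.31). Both genes were thus read about 1.25 to 1.28 times less often in the Exon2KO library, well short of the 2-fold threshold. B2m (chromosome 2, 122147686 to 122153083, plus strand) lay on the other side of 0, with 158168 and 174852 reads, or 11661 and 12779 FPKM, at 0.12 (0.11 to 0.13), or 0.22 (0.21 to 0.23) under total counts. Per length, B2m stood at 2.43 times H2-K1 in WT and 3.29 times in Exon2KO. Reads of B2m relative to those of H2-K1 and H2-D1 together differed between the libraries by 0.46 on the log2 scale (0.45 to 0.47), a difference that no library scaling can alter.

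The abundant class Ib chains, which are less variable between individuals and serve more specialised roles, lay close to the classical ones. H2-Q6 and H2-Q7, which encode the Qa-2 antigens, had 41522 and 38134 reads in WT against 34312 and 29768 in Exon2KO. Their log2 ratios were -0.30 (-0.32 to -0.28) and -0.38 (-0.41 to -0.36). H2-M3, which presents formylated bacterial peptides, had 1803 and 1497 reads, at -0.29 (-0.39 to -0.20). H2-T22, a ligand of some gamma-delta T cell receptors, had 2348 and 1673 reads, at -0.52 (-0.61 to -0.42). H2-T23 encodes Qa-1, which presents leader peptides of other class I chains to CD94/NKG2A receptors. It differed from this group: with 12887 and 12762 reads (283 and 278 FPKM) it was at -0.04 (-0.08 to -0.01), and at 0.065 when libraries were scaled by total counts.

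The less abundant class Ib genes went both ways. H2-Q4 had 686 reads in WT and 824 in Exon2KO, at 0.24 (0.09 to 0.39), and H2-Q2 had 85 and 139, at 0.67 (0.28 to 1.09). H2-Q1 had 393 and 322 reads, at -0.31 (-0.53 to -0.10), or -0.21 (-0.43 to 0.0079) under total counts. H2-Q10, whose product is a secreted class I molecule known from liver, had 197 and 108 reads, at -0.88 (-1.25 to -0.55), and H2-T24 had 71 and 44, at -0.69 (-1.29 to -0.15). None of these 5 passed the 2-fold rule. H2-M2, with 16 and 28 reads, was too shallow for a difference to be detected (0.71, -0.16 to 1.77). H2-T3 encodes the thymus leukaemia antigen, a ligand of CD8 alpha homodimers that gut epithelium is known to make. It had 3 reads in WT and 13 in Exon2KO, with an interval of 0.23 to 4.54 on the log2 scale, and was not called, though it was called higher under total counts. Most epithelial markers were also higher in that library, and their part in this value was not tested.

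Reads of the H2-K, H2-D, H2-Q and H2-T genes can be shared. In GENCODE M21 transcripts, 9.63% of the 50-base windows of H2-K1 and 12.8% of those of H2-D1 were identical to a window of another gene, against 32.0% for H2-Q6, 26.4% for H2-Q7 and 34.5% for H2-T22. With 100-base windows the shares were 0.957% for H2-K1, 3.59% for H2-D1, 10.8% for H2-Q6, 12% for H2-Q7 and 8.86% for H2-T22. At 50 bases the values were 0% for B2m, Nlrc5, Cd74, H2-Ab1 and H2-Eb1. The read length and the treatment of multiply aligned reads are not given in the sources used here, so the division of reads among the heavy chain genes is uncertain. The sum over the 25 class I heavy chain genes, Cd1d1 included, is less exposed to it. That sum was 509583 reads in WT and 412511 in Exon2KO, or 3.13% and 2.68% of all reads, at a log2 ratio of -0.33 (-0.34 to -0.33).

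Cd1d1 had the lowest ratio of the 3 called members. It encodes CD1d, a class I-like chain that presents lipids to natural killer T cells and is known from B cells and myeloid cells. Cd1d1 (chromosome 3, 86995834 to 86999441, minus strand) had 643 reads in WT and 203 in Exon2KO, or 15.9 and 4.96 FPKM. The log2 ratio was -1.68 (-1.92 to -1.46), a 3.21-fold lower level in the Exon2KO library. Its close paralog Cd1d2, with which it shares 19.1% of its 50-base windows, had 14 and 0 reads. In the authors' deposited table Cd1d1 was the only member of 33 with an adjusted p-value below 0.05 (0.00447, log2 fold change -1.69).

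The peptide transporter and tapasin had ratios in the range of the abundant heavy chains. Tap1, a subunit of the peptide transporter, had 5841 reads in WT and 4521 in Exon2KO, at -0.40 (-0.45 to -0.34), and Tap2, the other subunit, had 1914 and 1481, at -0.40 (-0.50 to -0.30). Tapbp, which encodes tapasin, had 3645 and 2972 reads, at -0.32 (-0.39 to -0.25). Nlrc5, the class I transactivator, had 1586 and 1622 reads, at 0.01 (-0.10 to 0.11), and at 0.11 (0.01 to 0.21) under total counts, so whether it differed depends on the scaling. Over the 20 tested class I members the median log2 ratio was -0.32, with 14 below 0 and 6 above. All tested genes had a median of 0.0035, with an interquartile range of -0.33 to 0.35 and 49.7% of ratios below 0. Since class I transcripts are abundant, the 2992 genes with at least 1000 reads in 1 library are the nearer reference: their median was -0.06, their interquartile range was -0.27 to 0.12, and 58.6% lay below 0.

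**Figure D2:**
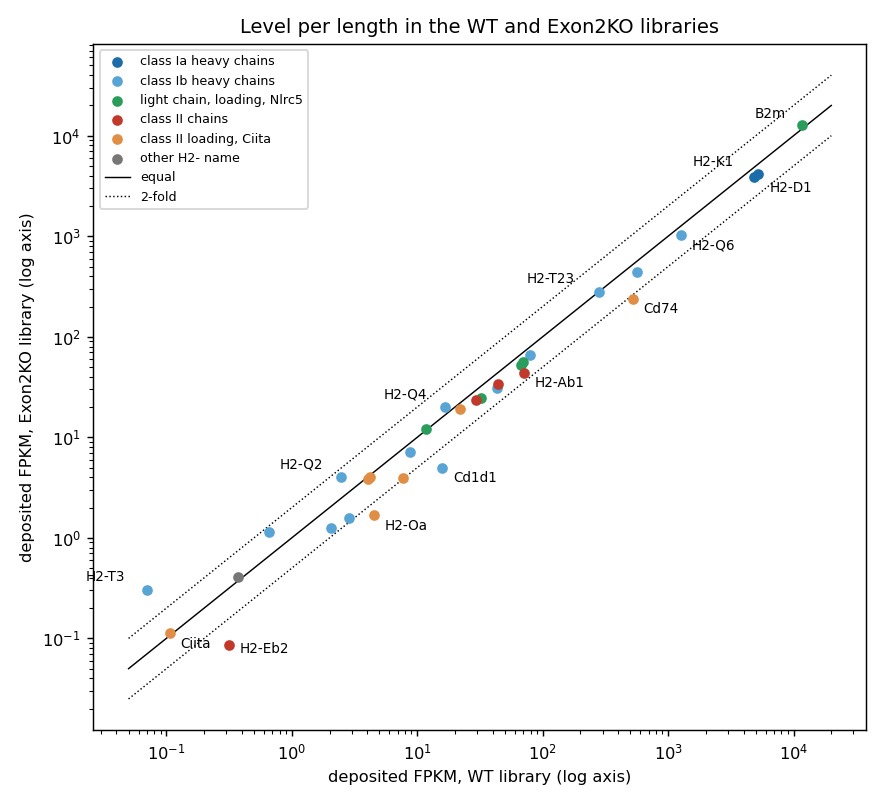
Deposited FPKM of each tested member in the WT library (x, log axis) and the Exon2KO library (y, log axis), coloured by role, with lines for equal levels and 2-fold differences. Levels span B2m at 11661 FPKM in WT down to H2-T3 at 0.07; Cd74, Cd1d1, H2-Oa and H2-Eb2 (11 and 3 reads, not called) lie below the lower 2-fold line and H2-T3 above the upper one.

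Summed over chains and loading genes, class II stood at 708.6 FPKM in WT and 371.8 in Exon2KO. Class I with its loading genes stood at 24173.3 and 22830.0. The class II chains alone summed to 145 and 101.3 FPKM, against 12330.5 and 9905.9 for the class I heavy chains. H2-Ab1, the beta chain of the A molecule, had 1838 reads in WT and 1145 in Exon2KO (71.2 and 44.0 FPKM), at -0.71 (-0.82 to -0.60). Its partner alpha chain H2-Aa had 873 and 706 reads (29.5 and 23.7 FPKM), at -0.33 (-0.48 to -0.19). H2-Eb1, the beta chain of the E molecule, had 820 and 633 reads (43.9 and 33.6 FPKM), at -0.40 (-0.55 to -0.25). All 3 chains had fewer reads in the Exon2KO library, and none passed the 2-fold rule. H2-Eb2 had 11 and 3 reads, with an interval of -4.38 to 0.02. The row H2-Ea-ps, named for the alpha chain of E and annotated as a pseudogene, had 0 reads in both libraries. Per length, H2-K1 stood at 67.4 times H2-Ab1 in WT and 88.2 times in Exon2KO.

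Cd74, the invariant chain, held most class II reads and was called lower. It had 11586 reads in WT and 5335 in Exon2KO, or 521 and 238 FPKM, with a log2 ratio of -1.15 (-1.19 to -1.10), a 2.21-fold lower level. It took 70.6% of class II reads in WT and 60.8% in Exon2KO. Per length it stood at 7.32 times H2-Ab1 in WT and 5.41 times in Exon2KO, and at 17.6 and 10.04 times H2-Aa. In the authors' deposited table its adjusted p-value was 0.0977 and that of H2-Oa 0.0888. CD74 is also made without class II, as a receptor chain for the cytokine MIF.

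The genes of peptide exchange were not alike. H2-Oa and H2-Ob encode the DO molecule, an inhibitor of peptide exchange known mainly from B cells. H2-Oa (chromosome 17, 34092340 to 34095234, plus strand) had 93 reads in WT and 35 in Exon2KO, at -1.39 (-2.04 to -0.86), and was called lower. H2-Ob had 384 and 198 reads, at -0.98 (-1.24 to -0.73), just inside the 2-fold threshold. H2-DMa, H2-DMb1 and H2-DMb2 encode the DM molecule, which catalyses the exchange. H2-DMa had 572 and 499 reads, at -0.22 (-0.40 to -0.05), or -0.12 (-0.29 to 0.06) under total counts. H2-DMb1 had 98 and 95 reads, at -0.07 (-0.49 to 0.35), or 0.034 under total counts, and H2-DMb2 had 110 and 104, at -0.11 (-0.51 to 0.29). No difference could be detected for either with these reads, and the paralogs share 22.7% and 24.8% of their windows with other genes, mostly each other. Ciita, the class II transactivator, was near the floor with 16 and 17 reads (0.11 FPKM in each library, interval -1.01 to 1.14). H2-Ke6, outside both classes, had 9 and 10 reads.

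Class II was compared with class I by medians and by summed reads, which use different sets of genes. By medians over tested members, both with loading genes, class II stood at -0.40 (10 of 11 below 0) and class I at -0.32, a gap of -0.08. By summed reads, class II chains and loading genes held 16401 in WT and 8770 in Exon2KO, which is -0.93 (-0.97 to -0.89) in log2 terms, against -0.33 for class I heavy chains and -0.21 for class I with its loading genes, most of whose reads are B2m. Class II reads per 1000 class I heavy chain reads were 32.2 in WT and 21.3 in Exon2KO, a change of -0.60 (-0.64 to -0.56). Most of that gap was Cd74: without it, class II summed to 4815 and 3435 reads, at -0.51 (-0.58 to -0.45), and the change relative to class I was -0.18 (-0.25 to -0.12). For class II chains over class I heavy chains alone it was -0.21 (-0.28 to -0.13). Members are not replicates, so these are descriptions of this pair of libraries.

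In bulk RNA, fewer cells of a type and less RNA per cell cannot be told apart, so marker genes of the cells known for class II are given beside these values. Of 10 B cell markers, 8 had at least 10 reads, of which 3 were called lower, Ms4a1 and Cd22 among them, and 1 higher (Blk). None was at 0 in both libraries, and the summed FPKM of the list was 88.9 in WT and 70.2 in Exon2KO. Cd79a and Cd79b, the signalling chains of the B cell receptor, had 1244 and 685 reads in WT and 990 and 508 in Exon2KO. Ms4a1, which encodes CD20, had 47 and 10 reads, and Pax5, the B lineage factor, 1 and 3. Of 6 plasma cell markers, Sdc1, which encodes CD138, was called higher and 0 were called lower, and the median log2 ratio was 0.03. The list summed to 3404.5 FPKM in WT and 3233.0 in Exon2KO, most of it Jchain, the joining chain of secreted antibodies, with 120089 and 113723 reads at -0.11 (-0.12 to -0.09).

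Of 9 dendritic cell markers, 6 had at least 10 reads and Zbtb46 and Cd209a were called lower. Itgax was at 0 in both libraries, and Batf3 and Clec9a, with 7 and 3 reads in WT, at 0 in Exon2KO. Xcr1 had 184 and 185 reads, Flt3 16 and 22 and Siglech 16 and 20, none of them called. The list summed to 427 FPKM in WT and 261 in Exon2KO, but nearly all of it was Ccr7, which T cells also express. Without Ccr7 the sums were 8.305 and 4.519 FPKM, and most of that difference was Zbtb46, at 4.08 and 1.03 FPKM. Of 11 macrophage markers, 9 had at least 10 reads and 0 were called in either direction. Their summed FPKM was 34.6 and 41.5. Lyz2 had 317 and 405 reads (0.32, 0.11 to 0.54) and Cd68 168 and 243 (0.50, 0.22 to 0.80). Cd14 had 122 and 116 reads, Csf1r 14 and 6 and Adgre1 1 and 2. The list for group 3 innate lymphoid cells, some of which carry class II, had 5 of 8 members called higher and 2 lower. It holds genes such as Il23r that colonic T cells express too. In the Exon2KO library, class II and the B cell and dendritic lists were lower by sum, as was the T cell list. The log2 ratio of summed reads was -0.34 for the T cell list, where Cd2 (32787 and 19603 reads) made most of the drop, and also -0.34 for the B cell list, while their medians were -0.21 and -0.48. The plasma cell list was at -0.07 by sum, with a median of 0.03. By contrast, the macrophage, innate lymphoid and epithelial lists were higher by sum. Their medians were -0.05, 1.52 and 2.51, and 5 of 9 tested macrophage markers lay below 0. The part of these lists in the class II values was not tested.

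**Figure D3:**
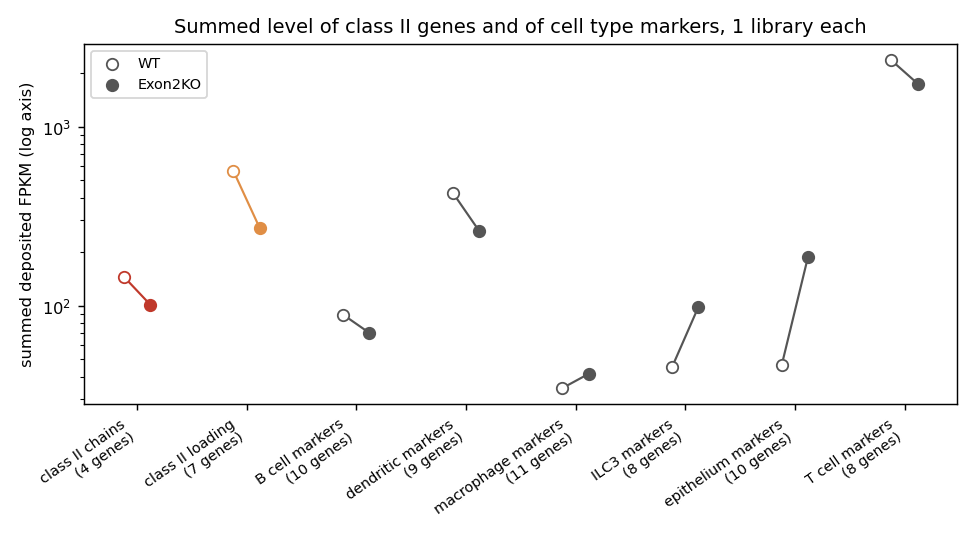
Summed deposited FPKM (log axis) of class II chains, class II loading genes and marker lists in the WT (open) and Exon2KO (filled) libraries, 1 library each. The class II loading genes go from 563.7 to 270.5 FPKM and the B cell markers from 88.9 to 70.2, while the epithelium markers go from 46.6 to 187.7.

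Other genes of the pathway were taken from lists chosen by function. Of 11 genes of class I processing, 0 were called, and the median log2 ratio was -0.19. The 3 inducible proteasome subunits Psmb8, Psmb9 and Psmb10, which cut peptides suited to class I, were at -0.41 (-0.47 to -0.34), -0.42 (-0.49 to -0.35) and -0.80 (-0.92 to -0.68). Psme1 and Psme2, subunits of the proteasome activator, were at -0.39 (-0.44 to -0.34) and -0.19 (-0.24 to -0.14). The chaperones of the endoplasmic reticulum that serve all secreted proteins lay nearer to 0: Hspa5 at -0.07, Calr at 0.06, Canx at 0.04 and Pdia3 at 0.08. Tapbpl, a relative of tapasin that edits peptides, was at 0.21 (0.14 to 0.28).

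Of 8 genes of class II processing, 7 had enough reads, and Lgmn, an endosomal protease, was called lower, with 598 reads in WT and 296 in Exon2KO (-1.04, -1.25 to -0.84). The cathepsin genes Ctss and Ctsb, with 2734 and 7818 reads in WT, were at -0.08 (-0.157 to -0.0017) and 0.24 (0.20 to 0.29). March1, whose product removes class II from the surface, had 8 and 0 reads. Among 7 factors that bind the X and Y boxes, Nfya was called higher, with 65 and 160 reads (1.25, 0.85 to 1.71). The other NF-Y genes were at 0.23 (Nfyc) and -0.28 (Nfyb), and the RFX genes Rfxap, Rfxank and Rfx5 at -0.27, -0.04 and -0.39. Of 10 further class I-like genes, 8 had enough reads and Cd1d2 was called lower.

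Genes of the interferon pathway, which raises both MHC classes, had fewer reads in the Exon2KO library in most cases. Of 10 receptor, kinase and transcription factor genes, 9 had a ratio below 0, 0 were called, and the median was -0.23. Irf1, which acts directly on class I promoters, had 15185 reads in WT and 13048 in Exon2KO, at -0.25 (-0.28 to -0.21). Among 18 interferon-induced genes the median was -0.51, and 14 lay below 0. Of all tested genes, 49.7% lay below 0 and 6.81% were called lower. Of genes with at least 1000 reads in 1 library, 58.6% lay below 0. Oas1a, Usp18 and Ifit3 were called lower, at -1.09 (-1.24 to -0.95), -1.47 (-1.73 to -1.24) and -1.47 (-1.91 to -1.10). Iigp1 and Isg15 stood on the other side, at 0.25 (0.18 to 0.32) and 0.13 (0.06 to 0.20). No test links these genes to the class I values.

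**Figure D4:**
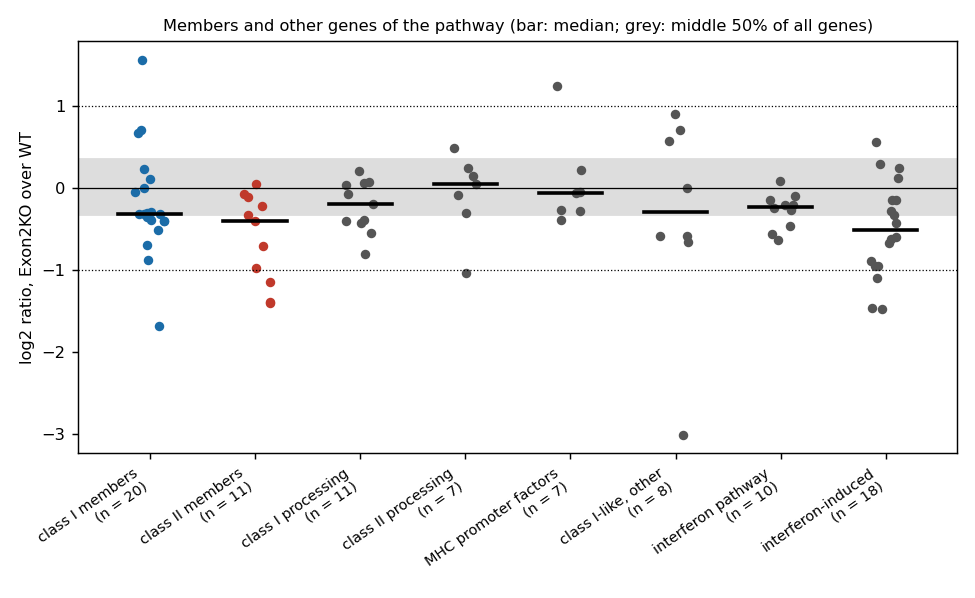
Log2 ratio of Exon2KO over WT (y axis) for class I and class II members and for 6 lists of other pathway genes, 1 point per tested gene, with the list median as a bar and the interquartile range of all tested genes in grey. Medians run from 0.05 for class II processing to -0.51 for interferon-induced genes, and most points lie between the dotted 2-fold lines.

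Promoter letters and ratios were set side by side as a description. The 4 class I genes with the NF-kB-like and interferon-like motifs and the spaced pair (H2-K1, H2-D1, H2-Q6 and H2-Q7) had ratios between -0.38 and -0.30. Of the 5 class I genes with a window and none of the motifs, Tap1 (-0.40) and Tapbp (-0.32) lay near that range and H2-T23 (-0.04), H2-Q2 (0.67) and H2-M2 (0.71) did not. B2m, with the spaced pair and neither other motif, was at 0.12. The 5 class I genes with the interferon-like motif but no NF-kB-like one ranged from -0.88 (H2-Q10) to 1.57 (H2-T3). The 5 class II genes with the spaced pair ranged from -1.40 (H2-Eb2, 14 reads in all) to -0.07 (H2-DMb1). Those with a window and no pair spanned a similar range: H2-Oa (-1.39), H2-Ob (-0.98) and H2-DMa (-0.22). The windows of H2-K1, H2-D1, H2-Q6 and H2-Q7 are related in sequence and their reads may be shared, so they are not independent points.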

How the data were processed

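All ratios and tests here start from the raw counts of reads per gene that the authors deposited. Levels per length are the FPKM values the authors deposited. The table the authors deposited also holds a scaled count signal, which was not used, a log2 fold change, and p-values, quoted for the 3 called members. Those p-values come from the same 2 libraries, 1 per genotype, so they rest on no measured spread and are not separate support. HISAT2 2.0.5, StringTie 1.3.3b, featureCounts 1.5.0-p3, DESeq2 1.16.1 and build mm10 are named, per the submitters' processing notes, without roles. Use of strand is not given in the sources used here. Library sizes were scaled by TMM (edgeR 4.0.16, R 4.3.3; the WT factor was 0.964 and the Exon2KO factor 1.04). A single library per genotype leaves the quasi-likelihood test without residual degrees of freedom, so genes with at least 10 reads were compared by the exact binomial test with Benjamini-Hochberg adjustment across all genes (scipy 1.17.1, Python 3.11.15). The procedure was run on simulated counts, which held counting error and no spread between animals. A prior count of 2 was added for log2 ratios. Their 95% intervals come from the exact Clopper-Pearson bounds on the Exon2KO share of a gene's reads, without that prior; intervals of a change between classes use the normal approximation. Coordinates are as deposited, 1-based, and 32 of 42 members have the same ones in GENCODE M21 (GRCm38). Alternatives were other scalings, read minimums, fold thresholds, prior counts, assumed spreads and FPKM. Members with at least 10 reads are named, and from the other lists the called genes and up to 4 with the most reads; further genes named from those lists were picked for their role after their values were seen. Members and lists were chosen with earlier results of these data known. Some genes of these lists are not reported here by name.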

Additional observations from a re-analysis of the deposited data

Results flagged for a closer look

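Rows with an H2- symbol that the annotation does not call protein-coding lie outside the comparisons above, and several held more reads than the 3 that a count of 0 allows. The polymorphic pseudogene H2-Q5 had 6862 reads in WT and 5388 in Exon2KO, at a log2 ratio of -0.38 (95% interval -0.43 to -0.32). The unprocessed pseudogene H2-K2 had 1936 and 1494 reads, at -0.40 (-0.50 to -0.30), and the polymorphic pseudogene H2-T10, a close relative of H2-T22, had 729 and 507, at -0.55 (-0.72 to -0.39). H2-T-ps had 739 and 830 reads, at 0.14 (-0.0039 to 0.29). H2-Pb had 4 reads in WT and 0 in Exon2KO, and H2-Q3 had 2 in WT and 4 in Exon2KO. H2-Q5, H2-K2 and H2-T10 had ratios in the range of the protein-coding class I heavy chains. Reads can be shared between these rows and their protein-coding relatives, and how many were was not tested.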

How the results depend on the processing

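The 3 calls (Cd1d1, Cd74 and H2-Oa) were also made under all 4 other scalings and both other read minimums. Total counts added 1 call higher, H2-T3. A 1.5-fold threshold gave 7 of 32 tested members lower and 1 higher, beside 10.9% and 10.8% of all tested genes. A 4-fold threshold gave 0 lower, beside 2.35%. When edgeR was given a biological coefficient of variation of 0.2, 1 lower call was left, Cd1d1, and 0 at 0.4; 1 library per genotype cannot measure this spread. The class I median was -0.30 with DESeq2 size factors, -0.21 with total counts and -0.30 from FPKM. The class II median was -0.385 with DESeq2 size factors, -0.29 with total counts and -0.386 from FPKM. Summed class I heavy chain reads were at -0.32 with DESeq2 size factors and -0.23 with total counts. Summed class II reads were at -0.82 with total counts and -0.51 without Cd74, a setting added after the data were seen. Total counts shift ratios upward by 0.106 before the prior count, and less for shallow genes, and under them H2-T23 (0.065) and H2-DMb1 (0.034) changed sign. With total counts, 4 of 32 members had intervals on another side of 0 (H2-DMa, H2-Q1, H2-T23 and Nlrc5). Apart from H2-T23 and H2-DMb1, no tested member changed sign under the 4 other scalings, the other prior counts or FPKM. Genes with few reads, such as Ciita and H2-Eb2, are limited by depth. No paired analysis was possible because each genotype has 1 library.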
